A study of Mus musculus with 13 samples.

Results

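Trp53, the mouse gene for the transcription factor p53, was followed with 9 genes of its pathway in the RNA of ovarian tumors in which Trp53 had been targeted. The 10 genes were Trp53 itself, its inhibitors Mdm2 and Mdm4, and the direct targets Ccng1, Phlda3, Zmat3, Sesn1, Sesn2, Gadd45a and Trp53inp1. They were taken by gene name from a table of 53465 genes, with earlier results of these data known, and all 10 were found and passed the filter on low values. The table covers 3 wild-type (WT) ovaries and 10 MYC;Trp53 (MP) tumors. WT ovaries were normal tissue from untreated C57BL/6 mice with no vector, and the protocol filed with every sample gives an age of 8 to 12 weeks. MP tumors, labelled Myc;p53-/- ovarian EPO-GEMM tumor, were raised in female WT C57BL/6 mice of that age at surgery. Plasmids were injected into the ovary and driven into the cells by electroporation: a transposon vector carrying MYC, a Sleeping Beauty transposase that inserts it into the genome, and a vector with Cas9 and a guide RNA against Trp53. Neither group received a drug. The method does not select a cell type, the study describes its tumors as oligoclonal, and the RNA came from bulk tissue that holds host cells with unedited Trp53. The labels do not say that each library came from a separate mouse, so p-values measure the spread between these libraries.

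p53 is held low in unstressed cells by Mdm2, a ubiquitin ligase that sends it to the proteasome, and by Mdm4, a related protein that masks its activation domain. DNA damage or oncogene activity releases it, and it then binds paired decamers in DNA and raises genes that stop the cell cycle, repair DNA, limit growth or kill the cell. Mdm2 is itself a target, which closes a feedback loop. An RNA level does not show whether the Trp53 reading frame is intact, since a transcript with a small insertion or deletion can still be made and counted.

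The stretches of promoter that hold a match to the p53 decamer are shown for the 5 genes that have one. Among the 8 genes with a window, Ccng1 carries the only paired match and fell. A single decamer is carried by Gadd45a, which fell, and by Trp53, Mdm2 and Sesn1, which were not called. No match is carried by Phlda3, which fell, or by Mdm4 and Sesn2, which were not called. Sites outside the windows were not searched, and a relation between match and change was not tested. The decamer, called the p53 half-site, was searched by its consensus on the strand of the gene, and since the consensus is its own reverse complement this covers both strands. Windows ran from 250 bases before to 50 bases after a RefSeq gene start (GRCm38.p6) and were found for 8 of the 10 genes, with 10 windows in all. No window was found for Zmat3 or Trp53inp1. Each sequence is printed 5′ to 3′ on the strand of its gene, and capitals mark the match. For Ccng1, on the minus strand at chr11:40755312-40755536, the 2 decamers adjoin with a spacer of 0 bases and 1 mismatch, 195 bases before the start. For Mdm2 the stretch is chr10:117710759-117711008 on the minus strand. For Trp53 the site is at chr11:69580274-69580303 on the plus strand, for Gadd45a at chr6:67037428-67037457 on the minus strand, and for Sesn1 at chr10:41887256-41887285 on the plus strand. The Gadd45a and Sesn1 sites lie before the RefSeq start of their window but within the gene coordinates given below.
Ccng1: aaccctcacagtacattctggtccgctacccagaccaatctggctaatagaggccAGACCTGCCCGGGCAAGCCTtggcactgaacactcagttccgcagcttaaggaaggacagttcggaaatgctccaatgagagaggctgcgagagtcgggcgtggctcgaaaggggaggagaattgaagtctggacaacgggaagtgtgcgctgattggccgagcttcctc
Mdm2: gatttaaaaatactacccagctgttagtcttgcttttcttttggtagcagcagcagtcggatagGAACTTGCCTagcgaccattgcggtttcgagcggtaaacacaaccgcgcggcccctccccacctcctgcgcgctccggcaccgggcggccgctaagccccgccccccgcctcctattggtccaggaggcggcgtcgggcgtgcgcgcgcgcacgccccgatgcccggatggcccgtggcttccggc
Trp53: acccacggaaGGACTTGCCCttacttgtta
Gadd45a: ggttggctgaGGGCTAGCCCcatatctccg
Sesn1: cttggccttcAAGCTTGTTTttgctggcct

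A pair of decamers with a spacer of up to 13 bases and at most 1 mismatch was found in 1.09% of all 32851 promoter windows, and in 1 of the 10 windows of these genes. A single exact decamer was found in 8.36% of all windows and in 5 of these 10. No match was found in the windows of Mdm4, Phlda3 and Sesn2. A match describes letters and is not a measured binding site, and the p53 sites of Mdm2 are known to lie in the first intron, outside this window.

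Values are TPM, read counts divided by transcript length and brought to the same total in each library, so levels of different genes can be compared. The TPM steps gave back whole reads, within 0.01 of a read, for 100% of values. The WT libraries held between 31445004 and 64013840 reads and the MP libraries between 3892690 and 19906507, with a median of 8543975. A library set is the number written in the library names: set 1 holds the 3 WT ovaries and MP tumors 1 to 3, set 2 holds MP4 to MP6 and set 3 holds MP7 to MP10. Condition and library set can be told apart only within set 1. MP2 stood apart, with 55.1% of its TPM in its 10 most abundant genes against at most 20.6% in any other library. Fold changes come from limma on log2(TPM + 1) over 17277 genes, with adjusted p-values over all of them, and understate the change of low genes. The median log2 fold change of all genes was -0.58, and scaling the libraries by the median of gene ratios moved it to -0.02, so the fold changes of the 10 genes are also given relative to the median.

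Trp53 RNA was low in most MP tumors and high in MP10. Trp53 (chr11:69580359-69591873, plus strand) stood at 80.7, 85.0 and 85.4 TPM in the 3 WT ovaries. In the 10 MP tumors the lowest value was 4.30 TPM in MP1, the median 14.0 and the highest 187 in MP10. Of the tumors, 9 lay below every WT ovary, at 5.14% to 31.0% of the WT mean, and MP10 lay above every WT ovary at 223% of it. The MP10 value rested on 1175 reads, with an exact Poisson 95% interval of 176 to 198 TPM that covers counting error only. After median-of-ratios scaling MP10 was still at 128 on that scale against 51.8 to 58.9 in WT. The other tumors then lay between 6.70 in MP1 and 37.6 in MP2, so MP2 came nearer to the ovaries than on TPM. The log2 fold change was -2.23 (SE 0.77, n = 10 and 3), or -1.66 relative to the median, and was not called in limma (adjusted p = 0.0579). It was not called either without any 1 ovary (adjusted p from 0.171 to 0.181) or after median-of-ratios scaling (-1.54, adjusted p = 0.0984). Without MP10 it was -2.61 (SE 0.49, adjusted p = 0.00241), but MP10 was singled out for its high Trp53, so that this value is a description and no test of Trp53. Within library set 1, which does not hold MP10, it was -3.41 (SE 0.38) and was called (adjusted p = 0.000181). With all 13 libraries it was called in limma-voom on the recovered reads, at -2.14 (SE 0.52, adjusted p = 0.00726), and with the library set as a covariate, at -3.41 (SE 0.77, adjusted p = 0.00214), where the fold change rests on set 1. Trp53 reads were thus counted in all 10 tumors labelled p53-/-, and gene-level counts do not check that label, since small edits leave the transcript countable.

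No gene in the table overlaps Trp53. Wrap53, which begins 104 bases away on the other strand and encodes a telomerase cofactor, lay at 28.4 TPM in MP10, within the range of 8.55 to 43.9 of the other tumors and above the 22.4 to 25.7 of the WT ovaries. Atp1b2, a sodium pump subunit 7863 bases beyond the 3′ end, lay at 180 TPM in MP10, against 183 to 273 in WT and 0.529 to 268 in the other tumors. MP10 was thus the highest tumor for Trp53 but not for either neighbor. The processed pseudogene Trp53-ps on chromosome 17 was listed at 0 in all 13 libraries.

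**Figure D1:**
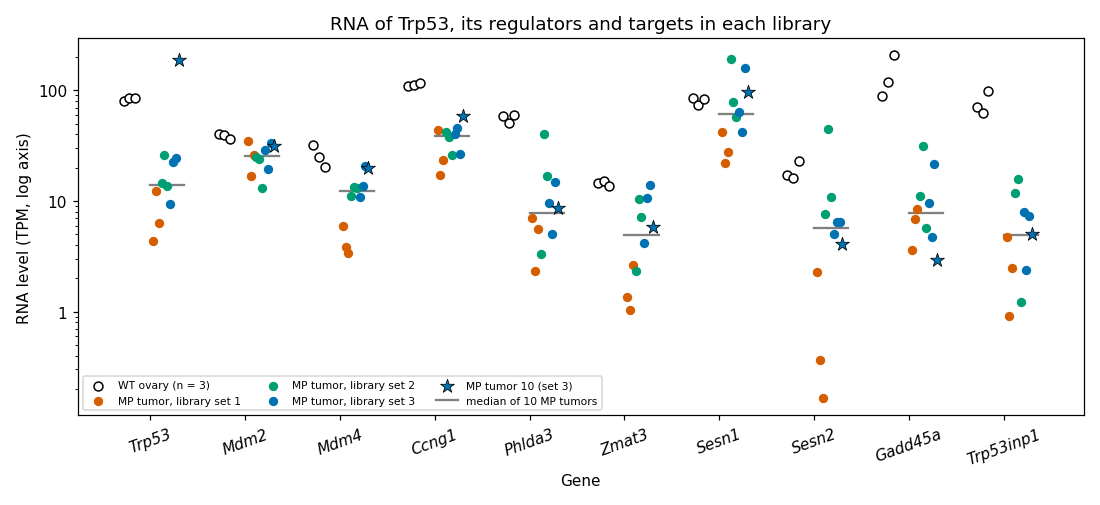
RNA level of the 10 genes (TPM, log axis) in each of 3 WT ovaries (open circles) and 10 MP tumors (filled, coloured by library set, MP10 as a star), with a bar at the tumor median. Trp53 in MP10, at 187 TPM, is above the WT ovaries, while the other 9 tumors are below them, and Gadd45a and Trp53inp1 show a clear gap between groups.

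Among the inhibitors, neither Mdm2 nor Mdm4 was called. Mdm2 (chr10:117688875-117710758, minus strand) stood at 40.3, 39.4 and 36.7 TPM in the WT ovaries. The tumors ran from 12.997 in MP6 over a median of 25.6 to 34.6 in MP1, all below the lowest WT ovary. The log2 fold change was -0.65 (SE 0.35, adjusted p = 0.203), only -0.07 from the median of all genes, and turned to 0.05 after median-of-ratios scaling, where the groups overlapped. Mdm4 (chr1:132959484-133030561, minus strand) stood at 31.9, 24.8 and 20.5 TPM in WT. Among tumors it ran from 3.39 in MP3 over a median of 12.2 to 20.7 in MP9, and 9 of 10 lay below every WT ovary. Its log2 fold change was -1.24 (SE 0.51, adjusted p = 0.105), or -0.67 relative to the median, and it was called within library set 1 at -2.31 (SE 0.30, adjusted p = 0.000388). Gm29257 overlaps Mdm4 on the other strand and reached 10.1 TPM, and whether reads were counted by strand is not given in the sources used here.

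The balance within a library does not depend on scaling. The ratio of Mdm2 to Trp53 TPM was 0.499, 0.463 and 0.430 in the WT ovaries. In MP1 to MP9 it ran from 0.876 in MP8 to 8.04 in MP1, above every WT ovary, and in MP10 it was 0.168, below every WT ovary. The ratio of Mdm2 to Mdm4 was 1.26, 1.59 and 1.79 in WT, 4.39 to 7.74 in MP1 to MP3 and 0.983 to 2.70 in the other 7 tumors. The high Mdm2 to Mdm4 ratios were thus those of the tumors in library set 1, and the part of the library set in this was not tested.

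**Figure D2:**
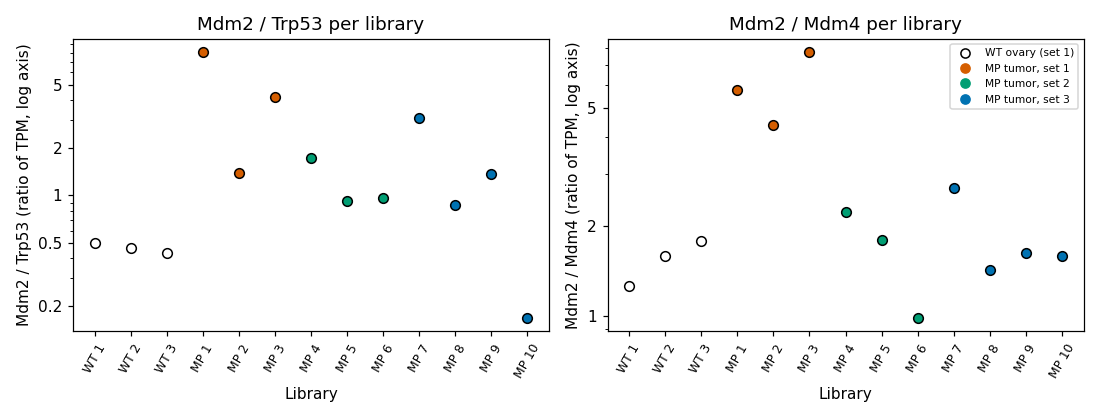
Ratio of Mdm2 to Trp53 TPM (left) and of Mdm2 to Mdm4 TPM (right), on log axes, for each library, coloured by library set. In the left panel MP1 to MP9 lie above the WT ovaries and MP10, at 0.168, lies below them, and in the right panel MP1 to MP3 lie highest.

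Ccng1, which encodes cyclin G1, a p53 target that brings phosphatase 2A to Mdm2, fell in the MP tumors. Ccng1 (chr11:40748552-40755311, minus strand), whose paired decamer is printed above, stood at 109, 112 and 116 TPM in WT. The tumors ran from 17.2 in MP2 over a median of 38.8 to 58.9 in MP10, with no overlap. The log2 fold change was -1.69 (SE 0.36, adjusted p = 0.00530), or -1.11 relative to the median of all genes. After median-of-ratios scaling it was -0.98 and no longer called (adjusted p = 0.0653). On TPM as deposited, the highest Ccng1 and the highest Trp53 were in the same tumor, MP10. Ccng1 there was 52.5% of the WT mean while Trp53 was 223% of it. After median-of-ratios scaling Ccng1 was highest in MP1 (68.9), the tumor with the least Trp53, and stood at 40.2 in MP10.

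Gadd45a and Trp53inp1 showed the lowest fold changes of the 10 genes. Gadd45a (chr6:67035096-67037457, minus strand), a stress sensor that binds PCNA and acts in growth arrest and DNA repair, stood at 88.4, 120 and 209 TPM in WT. In MP it ran from 2.92 in MP10 over a median of 7.70 to 31.4 in MP5, with no overlap. It fell by 3.82 on the log2 scale (SE 0.59, adjusted p = 0.000358), or -3.24 relative to the median. The tumor with the most Trp53 RNA therefore had the least Gadd45a, a value that rests on 8 reads. Trp53inp1 (chr4:11156431-11174379, plus strand), a stress protein that acts with p53 in cell death and in autophagy, stood at 70.5, 62.5 and 99.3 TPM in WT. MP values ran from 0.917 in MP2 over a median of 4.91 to 15.9 in MP5, with no overlap. It fell by 3.79 on the log2 scale (SE 0.62, adjusted p = 0.000615), or -3.22 relative to the median.

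Phlda3, a pleckstrin-homology protein that restrains Akt, also fell. Phlda3 (chr1:135766119-135769136, plus strand) stood at 58.3, 51.2 and 59.8 TPM in WT. In the tumors it ran from 2.31 in MP2 over a median of 7.81 to 40.6 in MP5, all below WT. The log2 fold change was -2.61 (SE 0.62, adjusted p = 0.00982), or -2.03 relative to the median. The call was lost without WT replicate 1 (adjusted p = 0.0563) or without WT replicate 3 (adjusted p = 0.0577), with the fold change at -2.58 and -2.57. Zmat3 (chr3:32334792-32366014, minus strand), an RNA-binding zinc finger protein, stood at 14.6, 15.1 and 13.6 TPM in WT. The tumors ran from 1.04 in MP2 over a median of 4.97 to 13.8 in MP9, and only MP9 reached the WT range. Its log2 fold change was -1.45 (SE 0.60, adjusted p = 0.105), or -0.87 relative to the median, and it was called within library set 1 at -2.57 (adjusted p = 0.000157).

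The sestrins Sesn1 and Sesn2, which sense leucine and stress and restrain mTORC1, gave unlike values. Sesn1 (chr10:41809935-41908424, plus strand) stood at 84.9, 74.5 and 83.3 TPM in WT. Values in MP ran from 21.9 in MP2 over a median of 61.2 to 192 in MP4, with 6 below and 3 above every WT ovary. Its log2 fold change was -0.36 (SE 0.56, adjusted p = 0.665), or 0.22 relative to the median. It turned to 0.35 after median-of-ratios scaling and to 0.06 after quantile normalization, and was -1.42 within library set 1 (adjusted p = 0.00715). Sesn2 (chr4:132492032-132510501, minus strand) stood at 17.3, 16.1 and 22.99 TPM in WT. The tumors ran from 0.164 in MP3 over a median of 5.71 to 44.8 in MP5, so 9 lay below and MP5 above every WT ovary. The 2 lowest, in MP3 and MP2, rested on 5 and 7 reads. The log2 fold change was -1.76 (SE 0.84, adjusted p = 0.156), or -1.18 relative to the median, and after median-of-ratios scaling it was -1.25 (adjusted p = 0.230). Within library set 1, which does not hold MP5, it was -3.50 (SE 0.41) and was called (adjusted p = 0.000235). Leaving out 1 library at a time, it was called only without MP5, the tumor above the ovaries, at -2.09 (adjusted p = 0.0394). Without any 1 ovary the adjusted p ran from 0.290 to 0.359. The ratio of Sesn1 to Sesn2 TPM was 4.92, 4.61 and 3.62 in WT and ran from 1.75 in MP5 to 170 in MP3. It was above every WT ovary in all tumors but MP5, and this ratio is free of scaling.

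Of the 10 genes, 4 were called lower (Ccng1, Phlda3, Gadd45a and Trp53inp1) and 0 higher, and 7 had an unadjusted p under 0.05, as did 33% of all genes tested. Of all genes tested, 16.8% were called, 14.3% lower and 2.51% higher. In 5 of the 10, all tumors lay below all ovaries, which held for 16.4% of all genes. The median log2 fold change of the 10 was -1.73, beside -0.58 for all genes. After median-of-ratios scaling 3 were called lower, where 11% of all genes were, and 6 did not overlap (Mdm4, Ccng1, Phlda3, Zmat3, Gadd45a and Trp53inp1), where 10.7% of all genes lay fully below. The gap between lowest ovary and highest tumor was narrow for Zmat3 (9.364 and 9.361), Mdm4 (14.1 and 13.8) and Ccng1 (69.8 and 68.9). In limma-voom on the recovered reads 7 were called lower, against 23.4% of all genes. Within library set 1, with 3 tumors against 3 ovaries, 9 of the 10 were called lower, all but Mdm2. There 57.3% of all genes were called lower and the median of all genes was -1.19, so a low value in set 1 was common.

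**Figure D3:**
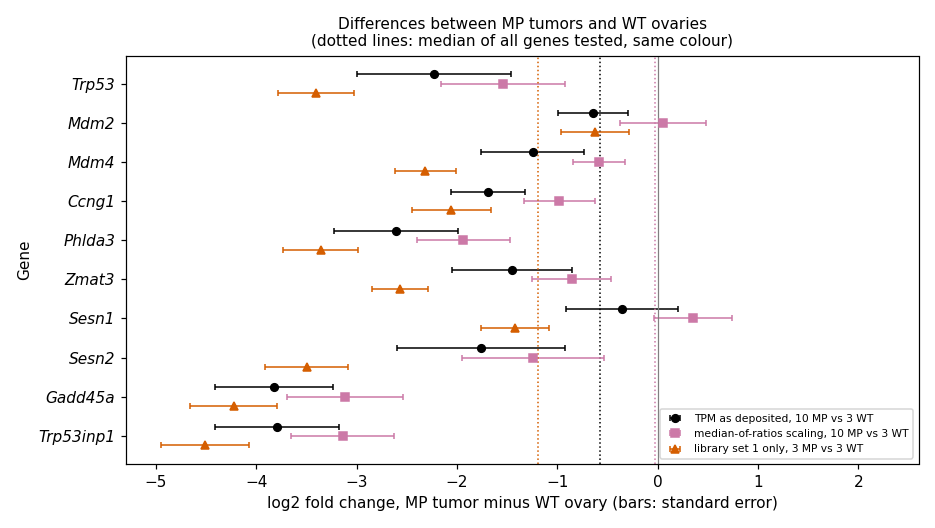
Log2 fold change (MP tumor minus WT ovary, with standard error) of the 10 genes in 3 fits: TPM as deposited, median-of-ratios scaling, and library set 1 only, with dotted lines at the median of all genes in each fit. Gadd45a and Trp53inp1 lie lowest in the fit on TPM as deposited, and Mdm2 and Sesn1 change sign between fits.

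The tumors did not order the targets alike. On TPM as deposited, MP2 was the lowest tumor for 5 of the 9 genes other than Trp53 and among the 3 lowest for 8. It is the library with 55.1% of TPM in 10 genes. After median-of-ratios scaling it was not the lowest for those 5. There Ccng1 stood at 53.1 in MP2 (lowest tumor 17.6), Phlda3 at 7.11 (3.50), Zmat3 at 3.20 (2.12), Sesn1 at 67.4 (37.4) and Trp53inp1 at 2.83 (1.07). MP5 was the highest tumor for 4 of the 9 (Phlda3, Sesn2, Gadd45a and Trp53inp1). It was also the shallowest library, with 3892690 reads, and had the highest summed endothelial markers (189 TPM) and immune markers (218 TPM) of the tumors. MP10 was the highest for 1 of the 9 and the lowest for 1. The ranks of MP5 and MP10 are also those of TPM as deposited. After the scaling Trp53inp1 was highest in MP4 (12.6) and Ccng1 in MP1 (68.9). The part of depth, composition and other cells in this order was not tested.

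The question for each tumor was whether its Trp53 RNA went with its target RNA. Over the 10 tumors, 9 relations with log2(Trp53 TPM + 1) were computed, with 2-sided permutation p-values. The largest was that of Mdm4, with Pearson's r of 0.696 (p = 0.0183) and Spearman's rho of 0.867 (p = 0.0022). Without MP10 and MP1, the 2 tumors farthest from the median of Trp53, the r of Mdm4 was 0.767. Zmat3 had r of 0.500 (p = 0.133) and rho of 0.661 (p = 0.0434), and Sesn1 had r of 0.437 (p = 0.210) and rho of 0.661 (p = 0.0434). Without the same 2 tumors the r was 0.729 for Zmat3 and 0.487 for Sesn1. For Sesn2 r was 0.326 (p = 0.340) and rho 0.564 (p = 0.0975), with r of 0.725 without the 2 tumors. The r of Ccng1 was 0.448 and its rho 0.345 (p = 0.196 and 0.330), and that of Phlda3 0.228 with rho 0.333 (p = 0.510 and 0.350). Without the 2 tumors these r were 0.361 and 0.460. Trp53inp1 had r of 0.184 and rho of 0.358 (p = 0.635 and 0.313), Mdm2 r of 0.107 and rho of -0.0909 (p = 0.769 and 0.812), and Gadd45a r of -0.0823 and rho of 0.164 (p = 0.820 and 0.656). For these the r without the 2 tumors was 0.376, 0.0479 and 0.468.

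None of these relations was called once tested across all genes. In limma with Trp53 as the covariate, the slope of 0 of the 9 genes passed an adjusted p of 0.05, while 2.08% of the 17276 genes did. At an unadjusted p under 0.05 it was 1 gene, Mdm4 (slope 0.40, SE 0.17, adjusted p = 0.145), against 28.4% of all genes. Positive relations were common in these tumors: the median r of all genes was 0.392 and 76.5% were positive. After median-of-ratios scaling only 2 of the 9 genes kept a positive r, Mdm4 at 0.468 and Zmat3 at 0.0226, and 0 genes of the table had a called slope, with 7.35% at an unadjusted p under 0.05. Without MP10 no slope of the 9 was called either, against 7.48% of all genes, and the slope of Gadd45a turned from -0.06 to 0.70 and that of Mdm2 from 0.03 to -0.14. With MP2 and MP10 both left out, a choice made after seeing the data, the slopes of Mdm4 (0.70), Zmat3 (1.00) and Sesn2 (1.30) were called, as were those of 25.4% of all genes. The library sets hold 3, 3 and 4 tumors, too few for a correlation within a set. With the set as a covariate the slope of Mdm4 was 0.12 (adjusted p = 0.880).

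**Figure D4:**
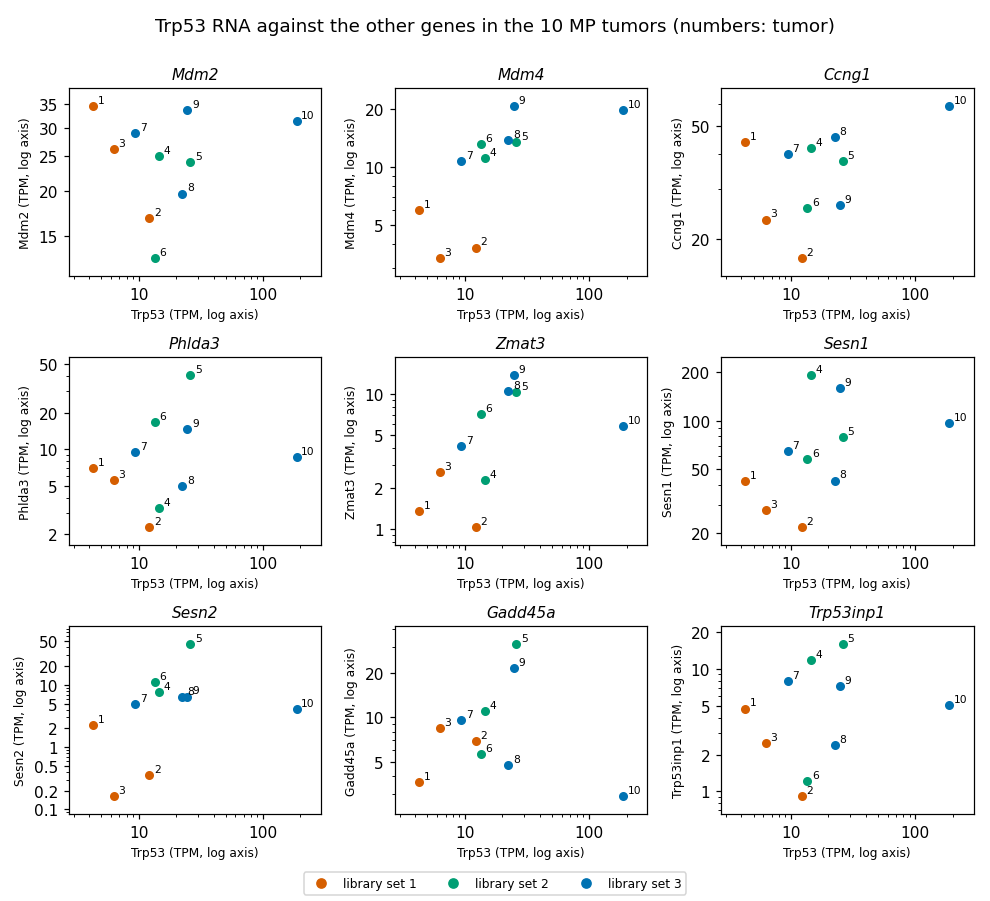
Trp53 RNA (x axis, TPM, log axis) against each of the 9 other genes (y axis, TPM, log axis) in the 10 MP tumors, numbered by tumor and coloured by library set. MP10 lies alone to the right at 187 TPM of Trp53. In these TPM as deposited, Gadd45a is at its lowest there (2.92 TPM) and Ccng1 at its highest (58.9 TPM).

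The genes whose levels ran most like Trp53 were no p53 targets of the lists used here. Over the 13 libraries and 11484 genes with a mean of at least 5 TPM, Spearman's rho was highest for Scaper (0.978), 2510009E07Rik (0.978), Vps8 (0.973), Dab2 (0.962) and Adamts1 (0.962). In MP10, Dab2 stood at 133 TPM and Scaper at 24.4, above their WT means of 89.5 and 20.4, while Adamts1 stood at 31.2, below its WT mean of 97.4. Among the 9 genes Mdm4 came nearest, with rho of 0.846 at rank 1152, and Mdm2 was at 0.418. These points share libraries, depth and the gap between ovary and tumor.

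Of 44 other listed targets 42 were tested (Lif and Trp53cor1 were too low), and 9 fell and 0 rose, where 14.3% and 2.51% of all genes did: Cdkn1a, Plk2, Polk, Dcxr, Pltp, Ak1, Dram1, Sfn and D630023F18Rik. The list's median was -0.65, near the -0.58 of all genes, and 71.4% of its members were negative against 69.9% of all genes. Cdkn1a, which encodes the cell cycle inhibitor p21, went from 95.8 ± 54.8 TPM in WT (SD, n = 3) to 19.99 ± 24.2 in MP (SD, n = 10), a log2 fold change of -2.62 (SE 0.78, adjusted p = 0.0327). Its tumors overlapped the ovaries, with a highest value of 82.3 TPM against a lowest ovary of 35.05. Pltp, a phospholipid transfer protein, fell by 2.84 on the log2 scale (adjusted p = 0.00563), D630023F18Rik fell by 3.34 (adjusted p = 0.0156) and Dram1, a lysosomal regulator of autophagy, fell by 1.56 (adjusted p = 0.0235). Bax and Bbc3, which promote cell death, were not called, with log2 fold changes of 0.39 (adjusted p = 0.530) and 1.34 (adjusted p = 0.200). The number called lower was 3 without WT replicate 1, 1 without WT replicate 2 and 1 without WT replicate 3, where the share of all genes called lower also dropped, to 6.70%, 6.92% and 6.86%. After median-of-ratios scaling 3 were called lower and 4 higher, beside 10.98% and 7.37% of all genes. The Pltp call held in every alternative run. That of Cdkn1a was lost without WT replicate 2 (adjusted p = 0.147), WT replicate 3 (0.179) or MP replicate 6 (0.0507). That of D630023F18Rik was lost without WT replicate 2 (0.0894) or 3 (0.0957), within library set 1 (0.0730), with the replicate block (0.128) and with quantile normalization (0.0623), and that of Dram1 without any 1 of the 3 ovaries (0.0666 to 0.140) or with quantile normalization (0.252). After median-of-ratios scaling Cdkn1a (0.0624), D630023F18Rik (0.0715) and Dram1 (0.0862) were not called either.

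Of 26 other regulators of p53, all tested, 2 rose and 1 fell, against 2.51% and 14.3% of all genes, with a median of -0.57. Cdkn2a, whose Arf product binds and blocks Mdm2, went from 3.38 ± 0.713 TPM in WT to 473 ± 262 in MP, and its lowest tumor stood at 124 TPM. The log2 fold change was 6.55 (SE 0.50, adjusted p = 2.71e-07), the highest of all genes tested. Aurka, a mitotic kinase that phosphorylates p53, rose by 1.58 (adjusted p = 0.0151), a call lost without WT replicate 1 (adjusted p = 0.0661) or 3 (0.118) and within library set 1 (0.0592). Bcl6, a repressor that acts on the Trp53 promoter, fell by 3.17 on the log2 scale (adjusted p = 0.00190). Of 11 relatives of the 10 genes, Trp73 was too low to be tested and Trp63 passed the filter on low values only through the ovaries, so that its difference was set by the filter. Of the 9 others 3 fell and 0 rose, where 14.3% and 2.51% of all genes did, with a median of -1.16. Trp53inp2, the paralog of Trp53inp1, went from 146 ± 26.9 to 18.4 ± 11.8 TPM, a log2 fold change of -3.22 (adjusted p = 0.00316). Sesn3 went from 77.0 ± 20.3 to 16.1 ± 17.7 TPM, at -2.77 (adjusted p = 0.0246), and without any 1 ovary it was no longer called (adjusted p from 0.0810 to 0.120). Trp63 stood at 1.96 ± 0.410 TPM in WT and 0.390 ± 0.327 in MP. Zmat1, a relative of Zmat3, fell by 2.15 on the log2 scale (adjusted p = 0.0384).

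**Figure D5:**
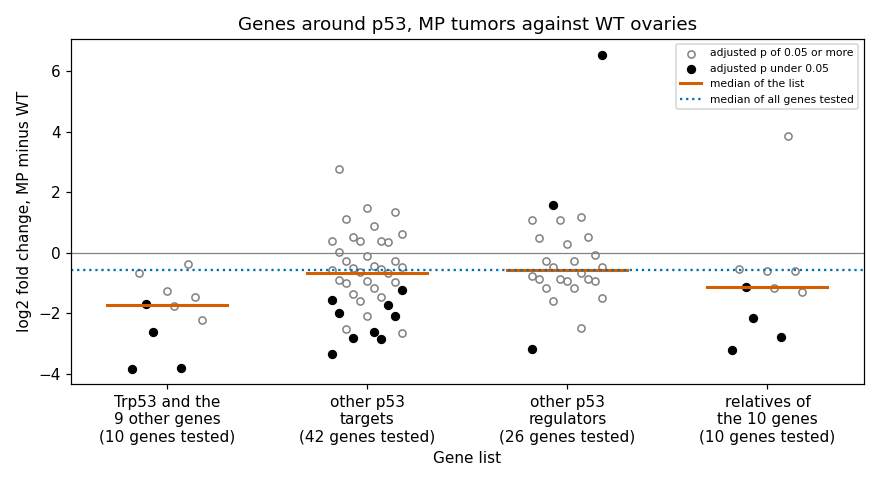
Log2 fold change (MP minus WT, TPM as deposited) of each tested gene in 4 lists, with filled points for an adjusted p under 0.05, a bar at the list median and a dotted line at the median of all genes. The median of the 10 genes is -1.73, and those of the other targets (-0.65) and regulators (-0.57) lie near that of all genes (-0.58), while that of the relatives, Trp63 included, is -1.14, with Cdkn2a far above at 6.55.

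The tumors as a group also held far less RNA of markers of normal ovarian cells. Gadd45a, Trp53inp1, Ccng1 and Phlda3 were low in the same group, and their relation to the markers across tumors was not computed. The 10 granulosa and luteal markers summed to between 28467 and 34121 TPM in WT and 11.6 to 2328 TPM in MP. The 8 oocyte markers summed to 315 to 470 TPM in WT and 1.43 to 32.7 in MP. Of these, 3 granulosa and luteal markers and 7 oocyte markers passed the filter on low values only through the ovaries, as did 1 epithelial marker, Cdh1, so for these 3 lists no count of calls is given. Epithelial markers summed to 237 to 267 TPM in WT and 5.67 to 1152 in MP. Stromal markers summed to 1042 to 1751 TPM against 33.9 to 3454, and 2 of 6 were called lower. Endothelial markers summed to 269 to 283 TPM against 6.04 to 189, and 3 of 5 were called lower. Immune markers summed to 137 to 284 TPM against 30.6 to 218, and 0 of 5 tested were called. Of all genes 14.3% were called lower and 16.8% in either direction. No marker was at 0 in every library of a group. In bulk tissue, fewer cells of a type and less RNA per cell cannot be told apart, and the part of these cell types in the falls was not tested.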

How the data were processed

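Poly(A) RNA of 3 WT ovaries and 10 MP tumors was sequenced as 76-base single-end reads. The submitters' processing notes name FastQC 0.11.5, Trimmomatic 0.36, STAR 2.5.3a and featureCounts 1.6.3 with mm10 (GRCm38), while the protocol text names another build, counter and unit. Build and unit are taken here from the deposited gene coordinates and values, and which counter was used is unsure. The deposited values are TPM per gene, made by the authors, with the same total in each library. Gene coordinates match GENCODE M21 for 96.0% of genes and for all 10 described here.

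A gene needed 1 TPM or more in 3 or more libraries. The test was limma 3.58.1 (trended, robust) on log2(TPM + 1), MP against WT and, across MP tumors, on log2(Trp53 TPM + 1), with Benjamini-Hochberg adjustment over all genes. Correlations used 100000 resamples. Alternatives were pseudocount 0.1, other filters, scalings, limma-voom on recovered reads, library set, replicate block and leaving out libraries. Code was tested on simulated data. Replicates differed beyond counting error, the only noise that this check covers (chi-square per degree of freedom of at least 25.8).

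The 10 genes and all lists were chosen with earlier results of these data known. Named beyond them were the called targets and, per list and direction, the 3 called genes with the largest moderated statistic, Cdkn1a, Cdkn2a, Trp53's neighbors and the 5 genes most like Trp53. Bax, Bbc3 and Zmat1 were chosen after their values were seen.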

Additional observations from a re-analysis of the deposited data

Results flagged for a closer look

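In 9 of 21 measures over the 10 MP tumors, 1 tumor stood apart from the others by more than Dixon's 95% limit, which chance passes in about 1 of 20 groups if values are normally distributed. TPM, ratios and sums are skewed, so that rate need not hold here, and the high Trp53 of MP10 was known when the genes were chosen. Trp53 in MP10 was 187 TPM, with the next tumor, MP5, at 25.99. In MP5, Phlda3 was 40.6 TPM, with the next tumor at 16.9, and Sesn2 was 44.8 TPM, with the next at 10.9. In MP1 the ratio of Mdm2 to Trp53 was 8.04, with the next tumor at 4.18, and the ratio of Ccng1 to Trp53 was 10.3, with the next at 4.26. In MP3 the ratio of Sesn1 to Sesn2 was 170, with the next tumor at 60.3, and its Sesn2 value rests on 5 reads. Among the marker sums, MP4 was apart for oocyte markers (32.7 TPM, next 16.0) and epithelial markers (1152 TPM, next 464), and MP9 for stromal markers (3454 TPM, next 1624).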

How the results depend on the processing

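With 3 ovaries, all in 1 library set, and with Phlda3, Sesn2 and Gadd45a resting on under 10 reads in some tumors, small differences could not be resolved. The count of the 10 genes called lower was 4, and 3 to 5 when 1 library was left out. It was 7 with limma-voom, 9 in library set 1, 9 with the set as a covariate and 9 with the replicate block. The other targets called lower numbered 9, and 5 with pseudocount 0.1, 3 with median-of-ratios scaling, 5 with quantile normalization, 15 with limma-voom, 25 in set 1, 24 with the set as a covariate, 25 with the replicate block and 1 to 12 when 1 library was left out, where 6.70% to 18.9% of all genes were. The shares of all genes called lower were 10.1%, 10.98% and 12.5% in the first 3 of these fits and 23.4%, 57.3%, 49.4% and 56.7% in the next 4. Those called higher numbered 0, and 4, 7 and 4 with median-of-ratios scaling, quantile normalization and limma-voom, beside 7.37%, 9.64% and 10.9% of all genes, 1 in set 1, with the covariate and with the block, beside 6.44%, 5.17% and 6.29%, 2 without MP2 and MP10, beside 3.91%, and 0 to 1 when 1 library was left out, beside 0.544% to 3.68%. Slopes on Trp53 above 0 were called for 0 of the 9 genes, beside 2.08% of all genes in either direction, and for 3 without MP2 and MP10, beside 25.4%.

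Fold changes that changed sign were Mdm2 with median-of-ratios scaling (0.053) and Sesn1 with that scaling (0.35) and quantile normalization (0.057). Slopes on Trp53 changed sign with median-of-ratios scaling for Mdm2 (-0.11), Ccng1 (-0.016), Phlda3 (-0.21), Sesn1 (-0.018), Sesn2 (-0.18) and Trp53inp1 (-0.21), and with quantile normalization for Mdm2 (-0.068), Phlda3 (-0.23), Zmat3 (-0.065), Sesn2 (-0.27) and Trp53inp1 (-0.25). With the set as a covariate, Sesn2 (-0.035) and Trp53inp1 (-0.063) changed sign. Without MP2 and MP10, Mdm2 (-0.15) and Gadd45a (0.69) did, and with 1 tumor left out their slopes ran from -0.14 to 0.11 and from -0.21 to 0.70. The cause was not tested.

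Only WT and MP replicates 1 to 3 share numbers, and the deviations of same-numbered libraries correlated at -0.096, -0.021 and 0.001, so they share only a number. With the replicate block Trp53 was at -3.41, the value in set 1 without the block, and Cdkn1a was not called (adjusted p = 0.145).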

Other observations

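Mdm2 and Sesn1 lie on chromosome 10. Relative to the median of its own library, the median log2 ratio to WT of 812 genes on chromosome 10 was -0.47 in MP5, -0.51 in MP6 and -0.45 in MP8, and between -0.08 and 0.11 in the other 7 tumors. Mdm2 stood at 24.1 TPM in MP5, 12.997 in MP6 and 19.7 in MP8, and at 16.8 in MP2, whose chromosome 10 median was -0.08. These TPM are not relative to the library median, which was -1.55 in MP2. After median-of-ratios scaling Mdm2 was at 17.3 in MP5, 11.5 in MP6 and 17.3 in MP8. On that scale it was at 51.8 in MP2, and the other tumors lay between 21.4 and 53.9. Sesn1 stood at 97.2%, 71.6% and 52.5% of the WT mean in MP5, MP6 and MP8, and at 27.04% in MP2, again on unscaled TPM. After the scaling it was at 56.4, 51.4 and 37.4 in MP5, MP6 and MP8. It was then at 67.4 in MP2, against 50.1 to 57.5 in WT, and the other tumors lay between 54.6 and 203. Trp53 and Ccng1 lie on chromosome 11, where the median of 1395 genes was -0.56 in MP9 and between -0.20 and 0.09 in the other 9 tumors. Sesn2 and Trp53inp1 lie on chromosome 4, where the median of 1079 genes was -0.30 in MP9 and between -0.04 and 0.07 in the others. In MP9, Trp53 stood at 24.7 TPM, Ccng1 at 26.4, Sesn2 at 6.50 and Trp53inp1 at 7.26. Medians of the other chromosomes that carry the 10 genes (1, 3 and 6) ran from -0.22 to 0.35. The part of these shifts in the values of the 10 genes was not tested.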
